A study of Mus musculus with 9 samples.

Results

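The ribosomal proteins examined here are the structural proteins of the cytosolic ribosome, whose gene symbols begin with Rpl or Rps, and those of the mitochondrial ribosome, whose symbols begin with Mrpl or Mrps. Members were taken by symbol from the probe annotation of the array, and kinases of S6 (Rps6k genes) were left out. The rule found 138 genes on 432 features, of 10554 genes on 20678 features that carry the name of 1 gene. Of these, 66 genes on 277 features were cytosolic and 72 genes on 155 features were mitochondrial. A value on all 9 arrays was present for 66 cytosolic and 69 mitochondrial genes, on 267 and 133 features. Mrpl9, Mrpl19 and Mrps25 lacked such a value and are described apart. A further 53 features name several genes, a member among them, and were not used, so that 8 members (Mrps6, Rpl12, Rpl14, Rpl22, Rpl26, Rps16, Rps27 and Rps3) were not analysed here.

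Skin of the distal tail was taken from female SKH-1 mice, a hairless and immunocompetent stock, that were 3 weeks old when studied and were sacrificed on day 14. Lymphedema mice had a circumferential incision of the tail skin 16 mm from the tail base, methylene blue, and cautery of the lymphatic trunks. Surgical sham mice had the incision and the dye with the trunks left in place, and normal mice had no surgery. Each state is represented by 3 arrays, each of RNA pooled from 3 mice, so that single mice cannot be seen and n = 3 in every state. RNA of whole mouse embryos (e17.5) was the common reference in the other channel of the cDNA array. All values below are log2 ratios of tail skin over embryo, centered on the median of each array, and a positive difference means more RNA in the state named before its comparator. The number of arrays limits the precision, and the intensities behind the ratios were not used here.

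By the labels the embryo carried Cy3 and tail skin Cy5, whereas the methods give the opposite dyes. The log base of the deposited ratio is not stated either and was taken as 2. With the sign of the deposited ratio turned, 7 genes typical of embryos had medians of −4.14 to −3.33 on the 9 arrays and 5 keratinocyte genes had medians of 2.99 to 4.13, and this is the basis of the direction used. Igf2bp1 of the embryo genes (mean 0.42) and Lor of the keratinocyte genes (mean −0.042) did not follow their lists. The arrays fell into 2 sets by their missing values: 186 features were measured on lymphedema array 1 and the 3 normal arrays while missing on the other 5, against 1 feature with the reverse pattern. No label names these sets, and what they stand for is not known. Values within each set of arrays are given beside the comparisons. Macrophage and neutrophil genes were high on all lymphedema arrays and on sham array 3, and their levels are set beside the ribosomal proteins below. In whole skin, fewer cells of a type and less RNA per cell cannot be told apart.

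A ribosome has a small subunit, which decodes the messenger RNA, and a large subunit, which joins the amino acids. Cytosolic ribosomes make nearly all proteins of the cell, and their proteins are encoded by short, highly expressed messenger RNAs that begin with a C followed by a run of C and T, the 5′ terminal oligopyrimidine (TOP) tract, through which mTOR signaling controls their translation. Mitochondrial ribosomes make the few proteins of the respiratory chain and ATP synthase that mitochondrial DNA encodes. All of their proteins are encoded in the nucleus, made on cytosolic ribosomes and imported.

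The pyrimidine run distinguished the cytosolic class in sequence. RefSeq promoters (build GRCm38.p6) were at hand for 114 members, 51 cytosolic and 63 mitochondrial, as 250 bases before and 50 after the annotated start. A run of at least 8 C or T within 20 bases of the start, on the strand of the gene, was found in 51.0% of cytosolic and 20.6% of mitochondrial members, against 18.3% of all protein-coding genes. On the other strand the shares were 7.84%, 9.52% and 19.8%. Windows of 30 bases, 10 before the start and 20 from it, are printed for members that the results turn on, with the run in capitals.
Rps12, chr10:23787190-23787219, minus strand: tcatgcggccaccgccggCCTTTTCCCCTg
Rplp2, chr7:141447641-141447670, plus strand: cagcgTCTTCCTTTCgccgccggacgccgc
Rps6, chr4:86857348-86857377, minus strand: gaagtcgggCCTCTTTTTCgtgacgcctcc
Rps18, chr17:33955646-33955675, minus strand: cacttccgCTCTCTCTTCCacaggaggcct
Rpl13a, chr7:45128726-45128755, minus strand: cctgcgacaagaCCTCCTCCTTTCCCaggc
Rps7, chr12:28635934-28635963, minus strand: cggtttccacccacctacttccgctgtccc
Mrpl1, chr5:96210105-96210134, plus strand: atttccgtgcagttgaaacccgggacccac
The windows of Rps12, Rplp2, Rps6, Rps18 and Rpl13a hold such a run, and those of Rps7 and Mrpl1 do not, although Mrpl1 has a run of 8 outside its printed window and within 20 bases of the start. An annotated start can lie some bases from the start that skin uses, so a window without a run says only that these letters are not in it.

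The core of ETS factors, CCGGAAG on either strand of the whole promoter stretch, was found in 47.1% of cytosolic and 38.1% of mitochondrial members, against 12.9% of all protein-coding genes. Among the members named in this text it lies within the printed distance of the start in Rpl11, Rps27l and Mrpl33, shown here with the core in capitals. Its place in the other members was not looked up.
Rpl11, chr4:136053374-136053403, minus strand: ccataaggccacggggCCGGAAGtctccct
Rps27l, chr9:66946076-66946105, plus strand: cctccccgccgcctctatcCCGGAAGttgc
Mrpl33, chr5:31613941-31613970, plus strand: gcatgccCCGGAAGtagtcgttgagctctt
The core of YY1, AAGATGGC on either strand, was found in 3 of 51 cytosolic and 11 of 63 mitochondrial members, against 3.57% of all genes. That of NRF1 was found in 3.92% of cytosolic and 3.17% of mitochondrial members, against 1.47% of all genes, and the E box CACGTG in 9.8% and 7.94%, against 8.91%. Overlaps between motifs were not removed, and a match of letters is not a binding site.

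Before any comparison of states, the classes differed in level against the embryo. Over the 9 arrays the median member of the cytosolic class stood at 0.35, and 57 of 66 genes had a mean above 0, 36 of them on every array and 0 below 0 on every array. The median mitochondrial member stood at −0.34, and 22 of 69 genes had a mean above 0, with 30 genes below 0 on every array and 6 above 0 on every array. On single arrays 44 to 66 of 66 cytosolic and 11 to 31 of 69 mitochondrial members lay above 0, against 43.6% to 49.4% of all genes. The share of all genes on 1 side of 0 on every array was not counted. The cytosolic median was above the mitochondrial median on each of the 9 arrays. A level against the embryo depends on both channels, so it does not rank genes by abundance.

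Among cytosolic members the highest ratios of tail over embryo belonged to Rpl11 (mean 1.16), which with Rpl5 carries the 5S RNA and binds the p53 regulator Mdm2, and to Rpl36 (1.10), a protein of the large subunit. The lowest belonged to Rpl36a (−0.39) and to its close paralog Rpl36al (−0.35). Among mitochondrial members Mrpl44, a large subunit protein with a ribonuclease III fold, was highest at 0.69, followed by Mrpl27 at 0.66. Mrps36 (−1.15) and Mrps22 (−1.14) were lowest. Mrps22 is a small subunit protein whose human gene is mutated in a mitochondrial disease, while the product of Mrps36 is now assigned to the α-ketoglutarate dehydrogenase complex.

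Cytosolic ribosomal proteins were higher in lymphedema than in normal skin as a class. The cytosolic median was 0.49, 0.80 and 0.47 on the lymphedema arrays, 0.46, 0.30 and 0.14 on the sham arrays, and 0.24, 0.17 and 0.17 on the normal arrays. All 3 lymphedema arrays lay above all sham and all normal arrays, while sham and normal arrays overlapped, since sham array 3 had the lowest value of the 9. The margin over sham array 1 (0.463) was narrow for lymphedema arrays 3 (0.467) and 1 (0.493). It is smaller than the differences between their deposited medians (−0.093 for sham array 1, −0.068 and −0.027 for these 2). The order of these arrays against sham array 1 thus depends on the centering. By state the class median was 0.59 ± 0.19 in lymphedema, 0.30 ± 0.16 in sham and 0.19 ± 0.041 in normal skin (SD, n = 3).

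The mitochondrial class moved less. Its median was −0.17, −0.077 and −0.23 on the lymphedema arrays, −0.33, −0.37 and −0.40 on the sham arrays, and −0.36, −0.33 and −0.33 on the normal arrays. Again all lymphedema arrays lay above all others, and sham and normal arrays overlapped. The state means were −0.16 ± 0.075, −0.36 ± 0.033 and −0.34 ± 0.016 (SD, n = 3) for lymphedema, sham and normal skin. The median of all 8644 genes was −0.050, −0.0098 and −0.039 on the lymphedema arrays, −0.071, −0.068 and −0.073 on the sham arrays, and −0.074, −0.10 and −0.11 on the normal arrays. This background of all genes was thus also highest in lymphedema, but over a smaller range than either class.

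The gap between the classes, cytosolic minus mitochondrial median, was 0.66, 0.88 and 0.69 on the lymphedema arrays, 0.79, 0.67 and 0.53 on the sham arrays, and 0.60, 0.50 and 0.50 on the normal arrays. Lymphedema and normal arrays did not overlap in this gap, while the sham arrays overlapped both. The means were 0.74 ± 0.12 in lymphedema, 0.67 ± 0.13 in sham and 0.53 ± 0.057 in normal skin (SD, n = 3).

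**Figure D1:**
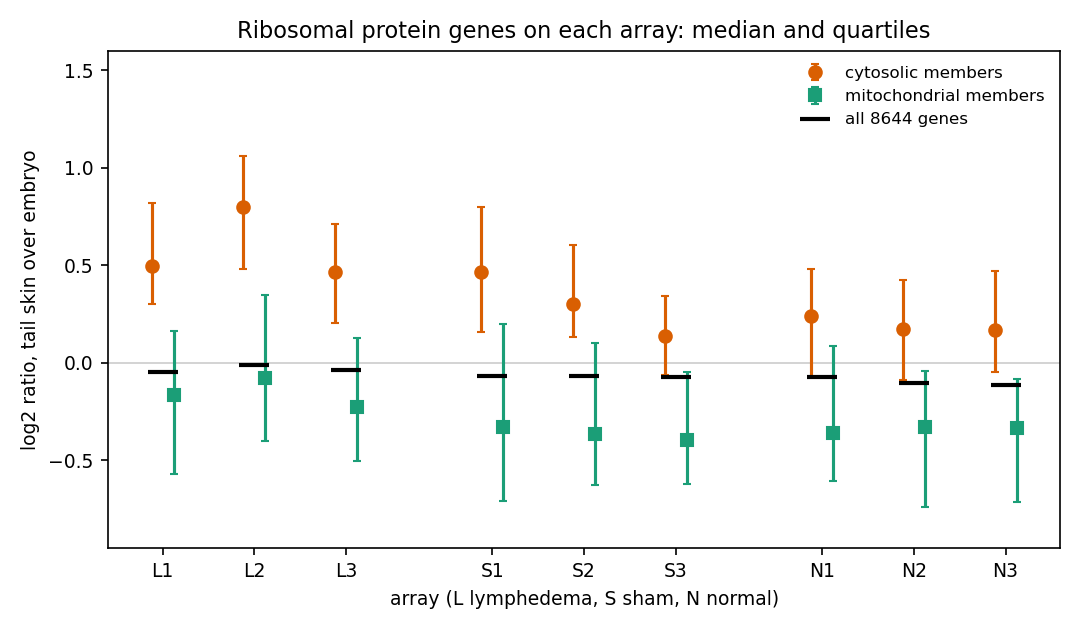
Median log2 ratio of tail skin over embryo (y axis) on each of the 9 arrays (x axis), for the 66 cytosolic members (circles), the 69 mitochondrial members (squares) and all 8644 genes (black dashes), with bars from the lower to the upper quartile of the members. The cytosolic median lies above the mitochondrial median on every array, is highest on lymphedema array 2 at 0.80 and lowest on sham array 3 at 0.14.

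For single genes the 3 states were compared with limma, fitted over all 8644 genes and all 9 arrays, and the threshold was an adjusted p (Benjamini-Hochberg, over all genes) of 0.05. In lymphedema against normal skin 3 of 66 cytosolic members (Rps12, Rps7 and Rps4l) and 1 of 69 mitochondrial members (Mrpl1) rose, and 0 fell. Over all genes 2.83% passed as higher and 0.602% as lower, so the number of members called is near the background. At an unadjusted p under 0.05 the counts were 25 cytosolic and 16 mitochondrial members, all of them higher, where 14.8% of all genes were higher and 5.71% lower.

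The shift of the cytosolic class was small for each gene and shared by nearly all of them. The difference of lymphedema from normal skin was positive in 65 of 66 cytosolic members, with a median of 0.38 and a middle range of 0.29 to 0.47. It was positive in 58 of 69 mitochondrial members, with a median of 0.21. Over all genes 62% were positive and the median was 0.10. All 3 lymphedema arrays lay above all 3 normal arrays in 47 cytosolic members (71.2%) and in 26 mitochondrial members (37.7%), against 23.6% of all genes. The reverse was seen in 0 members of either class, against 10.2% of all genes.

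The subunits of each class can be set side by side. The median difference of lymphedema from normal skin was 0.44 in 23 proteins of the cytosolic small subunit, all of them positive, and 0.35 in 43 proteins of the large subunit. It was 0.26 in 45 members named for the mitochondrial large subunit, of which 41 were positive, and 0.093 in 24 named for the small subunit, of which 17 were positive. The median of the mitochondrial small subunit was thus below that of all genes. In lymphedema against sham skin the medians were 0.32 and 0.28 for the cytosolic small and large subunits, and 0.14 and 0.18 for the mitochondrial ones. The difference between subunits was not tested.

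Lymphedema array 2 and sham array 3 marked the ends of the range of the cytosolic class. Of 66 cytosolic members, 51 had their highest value on lymphedema array 2 and 34 their lowest on sham array 3. Of 69 mitochondrial members, 32 were highest on lymphedema array 2, and 10 were lowest on sham array 3 against 17 on sham array 1. These shares were not counted over all genes, whose median was also highest on lymphedema array 2. Without lymphedema array 2 the median difference of lymphedema from normal skin was 0.28 in the cytosolic and 0.14 in the mitochondrial class, against 0.082 in all genes. Within the set that holds the normal arrays and lymphedema array 1, the differences had a median of 0.34 in cytosolic members (59 of 66 positive), 0.16 in mitochondrial members (49 of 69 positive) and 0.077 in all genes. Of all genes 57.5% were positive within this set, in which lymphedema has 1 array.

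**Figure D2:**
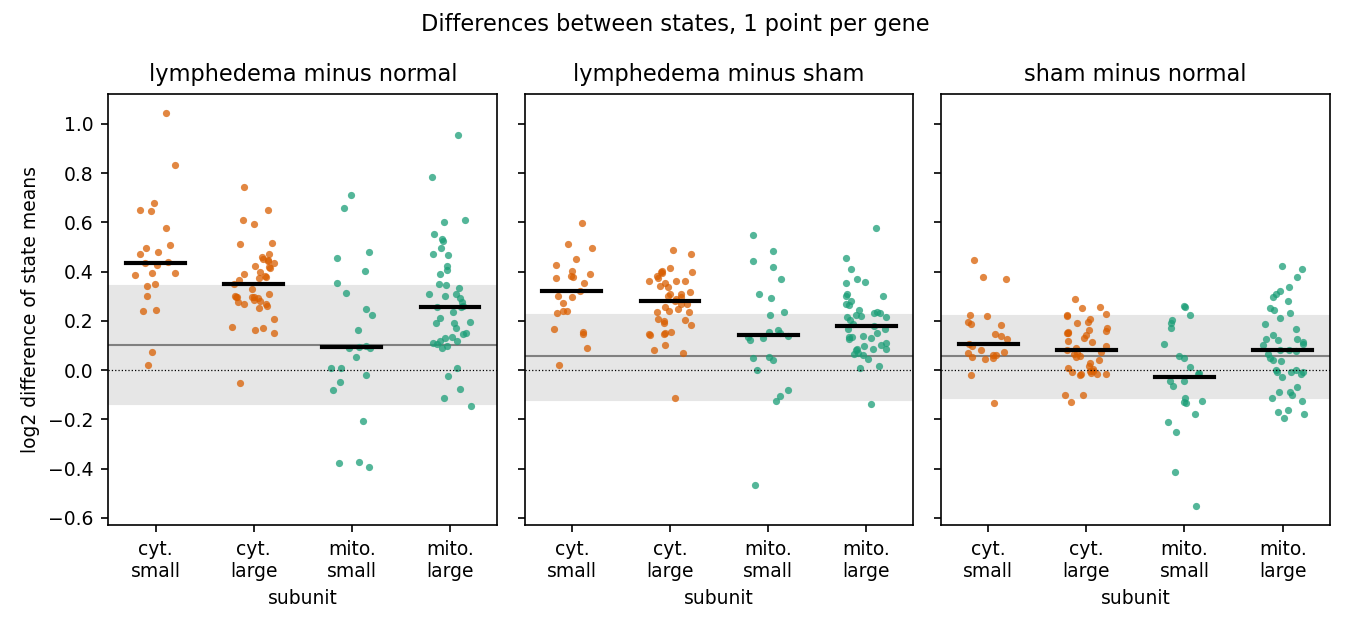
Log2 difference between state means (y axis) of every member with values on all arrays, 1 point per gene, by class and subunit (x axis), for the 3 comparisons, with black bars at the medians. The grey band and line give the quartiles and the median of all 8644 genes. In lymphedema minus normal skin the cytosolic medians of 0.44 and 0.35 lie above the upper quartile of all genes at 0.34, and in sham minus normal skin all class medians lie within the band.

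Rps12, a small subunit protein that in Drosophila takes part in cell competition, read 0.84, 1.29 and 0.68 in lymphedema, 0.52, 0.55 and 0.39 in sham, and 0.14, 0.065 and 0.12 in normal skin. The 3 states did not overlap, with sham between the other states. Rps12 rose 1.78-fold in lymphedema over normal skin (log2 difference 0.83 ± 0.19 SE, limma adjusted p = 0.0371). Its difference of lymphedema from sham skin was 0.45 (adjusted p = 0.648) and of sham from normal skin 0.38 (adjusted p = 0.656). RefSeq lists 23 pseudogenes named after Rps12, so the signal of its 1 clone can include RNA of related sequence.

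Rps7, a small subunit protein whose human gene is mutated in some families with Diamond-Blackfan anemia, read 0.38, 0.85 and 0.62 in lymphedema, 0.36, −0.020 and −0.28 in sham, and −0.21, −0.17 and −0.91 in normal skin. Lymphedema arrays lay above all others, and normal array 3 stood well below the other normal arrays. The rise of 2.06-fold (1.04 ± 0.25 SE, adjusted p = 0.0445) was the largest among the cytosolic members, and without normal array 3 the log2 difference was 0.80 (adjusted p = 0.139). Its sham comparisons missed the threshold, at 0.60 for lymphedema over sham (adjusted p = 0.648) and 0.45 for sham over normal skin (adjusted p = 0.694).

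Rps4l, an autosomal copy of the X-linked Rps4x that RefSeq annotates as a transcribed pseudogene, read 0.33, 0.41 and 0.36 in lymphedema, −0.034, 0.080 and 0.24 in sham, and −0.33, −0.31 and −0.20 in normal skin. The 3 states did not overlap here either. It rose 1.56-fold over normal skin (0.65 ± 0.16 SE, adjusted p = 0.0478). Its 2 clones gave 0.60 and 0.69. Rps4x itself, on 3 clones, differed by 0.24 ± 0.19 SE (adjusted p = 0.514). Clones of such a pair can bind the RNA of either gene, so the values of the 2 genes are uncertain.

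Mrpl1, a large subunit protein of the mitochondrial ribosome, read 0.56, 0.99 and 0.31 in lymphedema, 0.34, 0.10 and −0.31 in sham, and −0.38, −0.51 and −0.11 in normal skin. Lymphedema and normal arrays did not overlap, and the sham arrays overlapped both. It rose 1.94-fold over normal skin (0.96 ± 0.23 SE, adjusted p = 0.0468). Its difference of lymphedema from sham skin was 0.58 (adjusted p = 0.643) and of sham from normal skin 0.38 (adjusted p = 0.732).

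Each of these 4 calls rested on all arrays of the states compared. With any lymphedema or normal array left out 0 of the 4 genes passed, where 9 to 64 of all 8644 genes passed as higher. With the set of arrays as a block 0 of all 8644 genes passed in this comparison, the 4 members among them. Without sham array 2 only Rps12 passed, and without sham array 3 the 4 genes passed together with Rplp2, Rps21, Mrpl33 and Mrps16. Their differences kept their sign throughout, at 0.65 to 0.96 for Rps12, 0.80 to 1.17 for Rps7, 0.56 to 0.69 for Rps4l and 0.70 to 1.11 for Mrpl1 over the limma settings tried. SAM, the permutation method named in the methods, called 31 cytosolic and 14 mitochondrial members at a false discovery rate of 5%, all higher in lymphedema, where it called 16.4% of all genes as higher and 2.04% as lower.

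**Figure D3:**
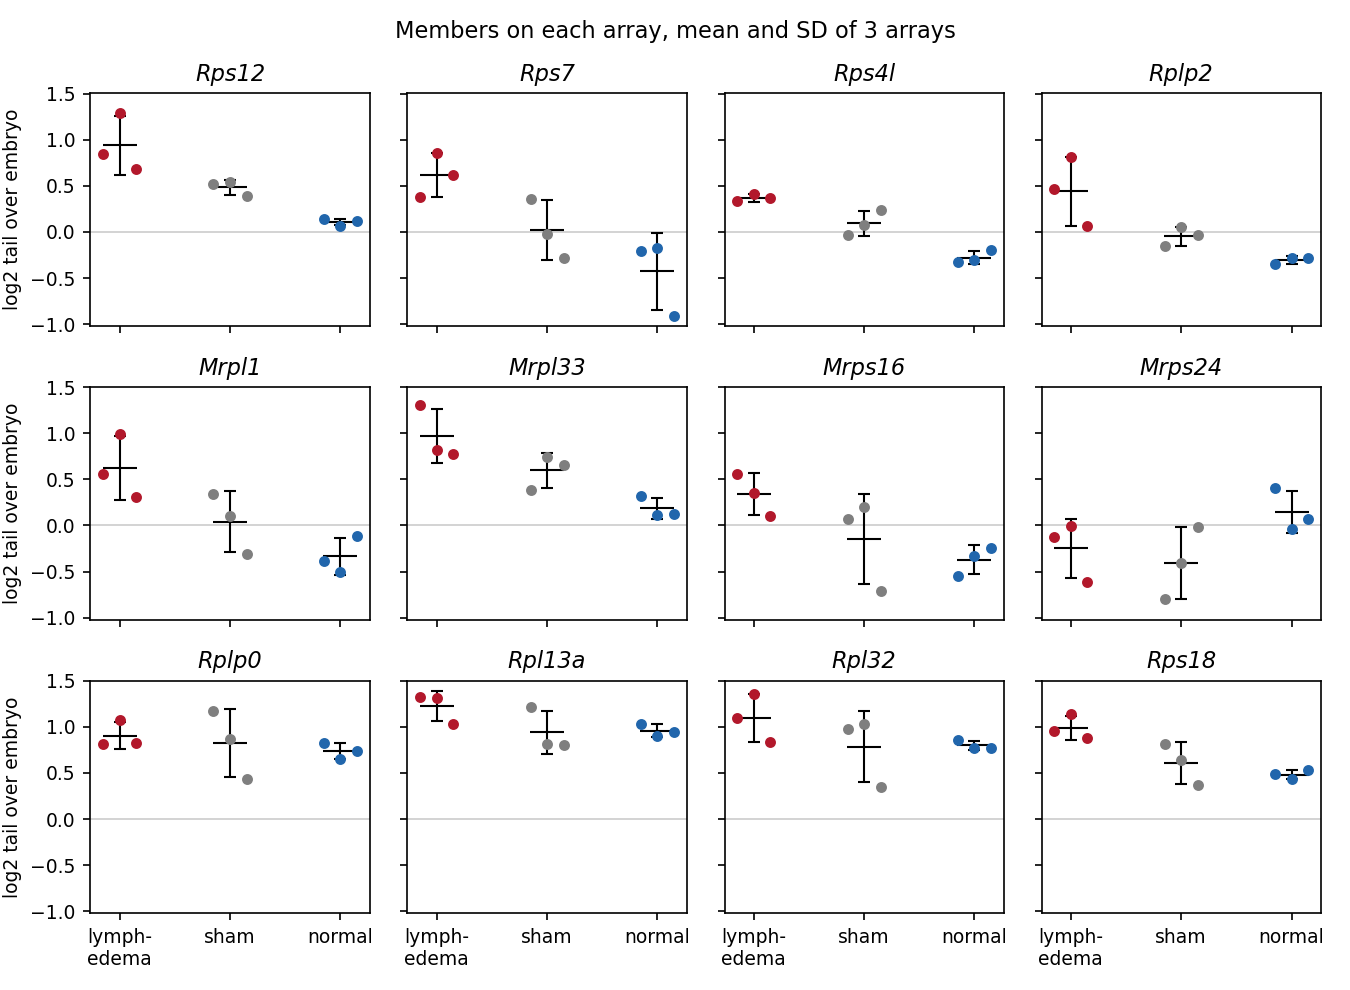
Log2 ratio of tail skin over embryo (y axis) for 12 members, 1 point per array, with the mean and SD of the 3 arrays of each state (x axis). Rps12, Rps4l, Rplp2 and Mrpl33 have all lymphedema points above all normal points with sham between, while Rplp0 and Rpl32, used as reference genes, have overlapping states.

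Mrpl33, a large subunit protein, lay just outside the threshold. It read 1.31, 0.82 and 0.78 in lymphedema, 0.39, 0.75 and 0.65 in sham, and 0.32, 0.11 and 0.13 in normal skin, without overlap between the states. The difference of lymphedema from normal skin was 0.78 ± 0.19 SE (adjusted p = 0.0509).

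Rplp2, 1 of the acidic proteins of the stalk on which elongation factors act, read 0.46, 0.81 and 0.059 in lymphedema, −0.15, 0.053 and −0.034 in sham, and −0.35, −0.28 and −0.28 in normal skin. The states were separate, with lymphedema array 3 close to sham array 2. Its difference was 0.74 ± 0.20 SE (adjusted p = 0.0679), and its 2 clones gave 0.58 and 0.91. The other stalk proteins differed less, by 0.44 ± 0.18 SE for Rplp1 (adjusted p = 0.197) and by 0.17 ± 0.20 SE for Rplp0 (adjusted p = 0.676).

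Further members with large positive differences from normal skin missed the threshold. Rps28, a small subunit protein, differed by 0.68 (adjusted p = 0.195), with lymphedema array 3 at 0.73 below normal array 3 at 0.90. Among mitochondrial members the differences were 0.71 for Mrps16 (adjusted p = 0.129) and 0.66 for Mrps9 (adjusted p = 0.170), both small subunit proteins, and for both all lymphedema arrays lay above all normal arrays. Mrpl44 differed by 0.61 (adjusted p = 0.151) with overlap.

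At the other end, the single cytosolic member with a negative difference was Rpl3l, a paralog of Rpl3 that is made in muscle, at −0.053 ± 0.20 SE (adjusted p = 0.914). It read −0.30, 0.049 and 0.26 in lymphedema, −0.11, 0.082 and 0.37 in sham, and 0.094, −0.020 and 0.097 in normal skin. Its highest value was on sham array 3, the array with the highest median of 4 skeletal muscle genes (−2.86, against −5.42 to −3.78 on the others). On sham array 2, where that median was −3.78, Rpl3l read 0.082, below lymphedema array 3 and normal arrays 1 and 3. A part of muscle in these values was not tested. Rpl3, the general form, differed by 0.30 ± 0.25 SE (adjusted p = 0.530).

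The next smallest cytosolic differences were 0.021 for Rps25, 0.072 for Rps19, which is the gene most often mutated in human Diamond-Blackfan anemia, and 0.15 for Rpl17. For Rps25 and Rps19 lymphedema and normal arrays overlapped. The clones of Rpl17 disagreed with each other, as given below.

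Negative differences were seen in 11 mitochondrial members, 7 named for the small and 4 for the large subunit, and the 4 largest belonged to members named for the small subunit. Mrps24 read −0.13, −0.011 and −0.61 in lymphedema, −0.80, −0.40 and −0.018 in sham, and 0.40, −0.042 and 0.073 in normal skin. It differed by −0.39 ± 0.24 SE between lymphedema and normal skin (adjusted p = 0.385) and by −0.55 between sham and normal skin (adjusted p = 0.596), with overlapping arrays. Mrps31 differed by −0.38 (adjusted p = 0.285), Mrps26 by −0.37 (adjusted p = 0.441) and Mrps30, which structures place in the large subunit despite its name, by −0.21 (adjusted p = 0.732). Of these 4 genes 0 passed, and in each of them lymphedema and normal arrays overlapped.

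Mrps36 stood low against the embryo in every pool, at −0.93, −0.71 and −0.92 in lymphedema, −1.44, −1.22 and −1.23 in sham, and −1.25, −1.41 and −1.26 in normal skin. All lymphedema arrays were above all others, while sham and normal skin differed by 0.014 (adjusted p = 0.987). The difference of lymphedema was 0.46 ± 0.16 SE from normal skin (adjusted p = 0.140) and 0.44 from sham skin (adjusted p = 0.573). Mrps22, the other low member, differed from normal skin by 0.091 (adjusted p = 0.827).

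Several cytosolic members serve as reference genes in PCR. Rplp0 read 0.81, 1.07 and 0.83 in lymphedema, 1.17, 0.86 and 0.44 in sham, and 0.82, 0.65 and 0.73 in normal skin, with overlap of all states. Rpl13a read 1.32, 1.31 and 1.03 in lymphedema, 1.21, 0.81 and 0.80 in sham, and 1.03, 0.90 and 0.94 in normal skin. Rpl32 read 1.10, 1.35 and 0.83 in lymphedema, 0.98, 1.03 and 0.34 in sham, and 0.86, 0.77 and 0.77 in normal skin.

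Of these reference genes, Rps18 was the one farthest from equal between lymphedema and normal skin. It read 0.96, 1.14 and 0.88 in lymphedema, 0.81, 0.64 and 0.37 in sham, and 0.48, 0.43 and 0.53 in normal skin. All lymphedema arrays were above all others, and the difference from normal skin was 1.42-fold (0.51 ± 0.17 SE, adjusted p = 0.126), against 1.13-fold for Rplp0, 1.20-fold for Rpl13a (0.27, adjusted p = 0.429) and 1.23-fold for Rpl32 (0.29, adjusted p = 0.478). Of the 4 reference genes 0 passed.

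Rps6, the target of S6 kinases, read 0.63, 1.00 and 0.72 in lymphedema, 0.54, 0.54 and 0.15 in sham, and 0.36, 0.33 and 0.36 in normal skin. Lymphedema lay above both other states without overlap, at 0.44 ± 0.18 SE over normal skin (adjusted p = 0.199). Rpsa, which also serves as a laminin receptor, differed by 0.35 ± 0.17 SE (adjusted p = 0.278) on 10 clones. Rps27l, a paralog of Rps27 that p53 induces, differed by 0.30 ± 0.17 SE (adjusted p = 0.344) on 13 clones. In both, all lymphedema arrays were above all normal arrays.

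Partners and paralogs can be set side by side. Rpl5 and Rpl11, the partners of the 5S RNA, differed from normal skin by 0.42 ± 0.19 SE (adjusted p = 0.246) and 0.45 ± 0.23 SE (adjusted p = 0.295). The paralogs Rpl36a and Rpl36al differed by 0.38 (adjusted p = 0.276) and 0.28 (adjusted p = 0.367), Rpl36 by 0.30 (adjusted p = 0.413), and Rpl39, at the exit of the protein tunnel, by 0.51 (adjusted p = 0.175), against 0.26 for its paralog Rpl39l (adjusted p = 0.511). Differences between paralogs were not tested, and cDNA clones can bind both.

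Between sham and normal skin the differences of ribosomal proteins were small. The median difference of sham from normal skin was 0.094 in cytosolic members, of which 53 of 66 were positive, and 0.050 in mitochondrial members, of which 39 of 69 were positive. Over all genes it was 0.058 and 59.6% were positive. Sham arrays lay entirely above normal arrays in 6 cytosolic (9.09%) and 6 mitochondrial members (8.70%), against 9.72% of all genes. By limma 0 members passed, as did 0% of all genes, and at an unadjusted p under 0.05 there were 1 cytosolic and 1 mitochondrial member higher and 1 mitochondrial member lower, where 5.54% of all genes were higher and 2.38% lower. Sham arrays lay entirely below normal arrays in 0 members, against 3.09% of all genes. SAM called 0 members, and 0.231% of all genes as higher and 0% as lower.

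All 3 sham arrays lay in 1 of the sets by missing values and all 3 normal arrays in the other, so this comparison has no value within a set, and state and set cannot be told apart. With the set as a block, estimated through the lymphedema arrays, the cytosolic median was 0.023, with 35 of 66 positive. Over all genes the median was then 0.020 and 52% were positive, so the cytosolic class stood at the background. The cytosolic value also rested on which sham pool was included. Without sham array 1 the median difference of cytosolic members from normal skin was 0.022, and without sham array 3 it was 0.19. The median of all genes was 0.048 without sham array 1 and 0.080 without sham array 3. The 3 sham pools thus differed among themselves by more than sham differed from normal skin.

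Lymphedema exceeded sham skin in nearly all members by small amounts. The median difference was 0.30 in cytosolic members, with 65 of 66 positive, and 0.16 in mitochondrial members, with 64 of 69 positive, against 0.058 and 58.9% positive in all genes. All lymphedema arrays lay above all sham arrays in 20 cytosolic (30.3%) and 10 mitochondrial members (14.5%), against 6.63% of all genes. By limma 0 members passed, where 0.0116% of all genes passed as higher and as many as lower, and at an unadjusted p under 0.05 there were 8 cytosolic and 4 mitochondrial members, all higher, where 4.59% of all genes were higher and 2.85% lower. Lymphedema arrays lay entirely below sham arrays in 0 members, against 3.69% of all genes. SAM called 0 members, and 0.0347% of all genes as higher and 0.0116% as lower. The largest negative difference was that of Mrps30 (−0.46, adjusted p = 0.723), which read 1.31 on sham array 1.

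Comparisons that share arrays are not independent, since the lymphedema arrays enter both of their comparisons. Within the set that holds the sham arrays and lymphedema arrays 2 and 3, the median difference of lymphedema from sham skin was 0.31 in cytosolic members (65 of 66 positive), 0.20 in mitochondrial members (62 of 69 positive) and 0.070 in all genes (59% positive). Without sham array 3 the median over all arrays was 0.20 in cytosolic members, with 59 of 66 positive, and likewise 0.20 without lymphedema array 2. The median of all genes was 0.047 without sham array 3, with 55.7% positive, and 0.036 without lymphedema array 2. The mean order lymphedema, sham, normal from high to low held in 52 of 66 cytosolic (78.8%) and 36 of 69 mitochondrial members (52.2%), against 35.1% of all genes.

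Marker genes of inflammatory cells differed between the states too. The median of 7 macrophage genes was 0.89, 1.07 and 0.90 on the lymphedema arrays, −0.73, −0.75 and 0.74 on the sham arrays, and −1.43, −0.84 and −0.81 on the normal arrays. That of 6 neutrophil genes was 1.46, 1.72 and 1.52 on the lymphedema arrays, −0.81, −0.34 and 1.04 on the sham arrays, and −1.41, −1.33 and −1.12 on the normal arrays. In both lists 4 genes passed against normal skin, namely Lyz2, Aif1, Fcer1g and Ms4a6b of macrophages and S100a8, S100a9, Lcn2 and Camp of neutrophils. In both comparisons with sham skin 0 genes of either list passed. Csf1r, the receptor of the macrophage growth factor, differed from normal skin by −0.060 (adjusted p = 0.924). Sham array 3, a single pool, carried high values of both lists and the lowest cytosolic median of the 9 arrays. The part of these genes' cells in the ribosomal differences was not tested.

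Keratinocyte and fibroblast genes, the expected cells of skin, differed less clearly. The median difference of lymphedema from normal skin was 0.42 over 5 keratinocyte genes and 0.66 over 5 fibroblast genes, 0 of which passed. Of 9 genes of proliferating cells the median was 0.17 and 0 passed. Of 7 embryo genes Hbb-y, an embryonic globin, passed as higher (0.95 ± 0.19 SE, adjusted p = 0.0275), and it stood at −3.68 to −1.97 on the 9 arrays, far below the embryo.

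The genes around the ribosome did not all follow its proteins. Of 6 measured ribosomal components outside the symbol rule the median difference of lymphedema from normal skin was 0.29 and 5 were positive. Rpl7l1, a paralog of Rpl7, rose among them, at 0.67, 0.79 and 0.39 in lymphedema, 0.23, 0.49 and 0.47 in sham, and −0.25, −0.45 and −0.0020 in normal skin (0.85 ± 0.19 SE, adjusted p = 0.0367). All lymphedema arrays were above all normal arrays, and sham overlapped lymphedema.

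Other messenger RNAs known to carry a TOP tract, which encode elongation factors, initiation factors and RNA-binding proteins, had a median difference of 0.46 over 12 measured genes, 10 of them positive. On the arrays their median was −0.12, 0.19 and −0.050 in lymphedema, −0.082, −0.30 and −0.38 in sham, and −0.50, −0.39 and −0.37 in normal skin. Of them Vim, the intermediate filament vimentin of mesenchymal cells and leukocytes, rose (0.93 ± 0.19 SE, adjusted p = 0.0288). Hnrnpa1, an RNA-binding protein, differed by 0.78 (adjusted p = 0.0676) and Eef1g, a subunit of elongation factor 1, by 0.55 (adjusted p = 0.114).

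Factors that build ribosomes stayed near the median of all genes. Over 44 measured genes of ribosome biogenesis the median difference of lymphedema from normal skin was 0.041, with 27 positive. Over 16 subunits and transcription factors of RNA polymerases I and III it was 0.10, with 10 positive. A single gene of the first list fell and 0 rose: Nle1, which takes part in the maturation of the large subunit, read −0.10, −0.016 and −0.30 in lymphedema, −0.072, 0.26 and 0.90 in sham, and 0.90, 0.64 and 1.00 in normal skin (−0.99 ± 0.24 SE, adjusted p = 0.0468). Of 12 genes of S6 kinases and mTOR signaling, with the transcription factors Myc and Max counted among them, the median was −0.073, with 3 positive and 0 passing. Of 20 genes of mitochondrial translation and ribosome assembly it was 0.19, with 17 positive and 0 passing, close to the 0.21 of the mitochondrial ribosomal proteins.

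Members with and without the pyrimidine run described above had close medians. The median difference of lymphedema from normal skin was 0.41 in 26 cytosolic members with a run and 0.38 in 25 without. In the mitochondrial class it was 0.21 in 12 members with a run and 0.26 in 49 without. No test was made.

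Most members were printed on the array as several clones, which gives a check within each gene. Of 58 cytosolic genes with more than 1 clone, all clones were positive between lymphedema and normal skin in 45. Of 36 such mitochondrial genes the clones had 1 sign in 22, which was positive in 21. The matching share of all genes with more than 1 clone was not counted, and 62% of all genes were positive in this comparison. Clones of a gene share the RNA pools and are not replicates. All 10 clones of Rpsa (0.22 to 0.55), all 7 of Rps6 (0.29 to 0.73), of Rpl32 (0.14 to 0.64) and of Rplp0 (0.036 to 0.37), and 12 of 13 of Rps27l (−0.030 to 0.70) were positive.

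Some members held a clone that disagreed with the others. Of 7 clones of Rpl7, a large subunit protein, 1 differed by −1.50 and passed as lower among all features (adjusted p = 0.0233), while the other 6 ran at 0.48 to 0.72. That clone read 0.044, −0.70 and −0.32 in lymphedema, −0.32, 0.15 and 1.06 in sham, and 1.39, 1.27 and 0.88 in normal skin. Its lymphedema values lay below all of its normal values. The gene average of 0.30 (adjusted p = 0.340) mixes both kinds, and the mean of the 6 others was 0.60.

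In Mrps31 likewise 1 of 3 clones differed by −1.04 (adjusted p = 0.0304) and the others by −0.17 and 0.082. Clones of Rpl17 ran at −0.62 to 0.67 and those of Rps24, a small subunit protein, at −0.50 to 0.93. Among the 267 cytosolic features 1 passed as higher and 1 as lower, and among the 133 mitochondrial features 1 passed as lower, where 2.30% of all 30702 features passed as higher and 0.635% as lower. In the comparisons with sham skin 0 member features passed, where 0.0195% of all features were higher in sham than in normal skin and 0.00326% lower in lymphedema than in sham skin. What RNA these clones bind was not tested. RefSeq lists 280 pseudogenes named after 50 of the 66 cytosolic members, and 6 named after 4 of the 72 mitochondrial members, so the signal of a cytosolic clone can include RNA of related sequence.

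**Figure D4:**
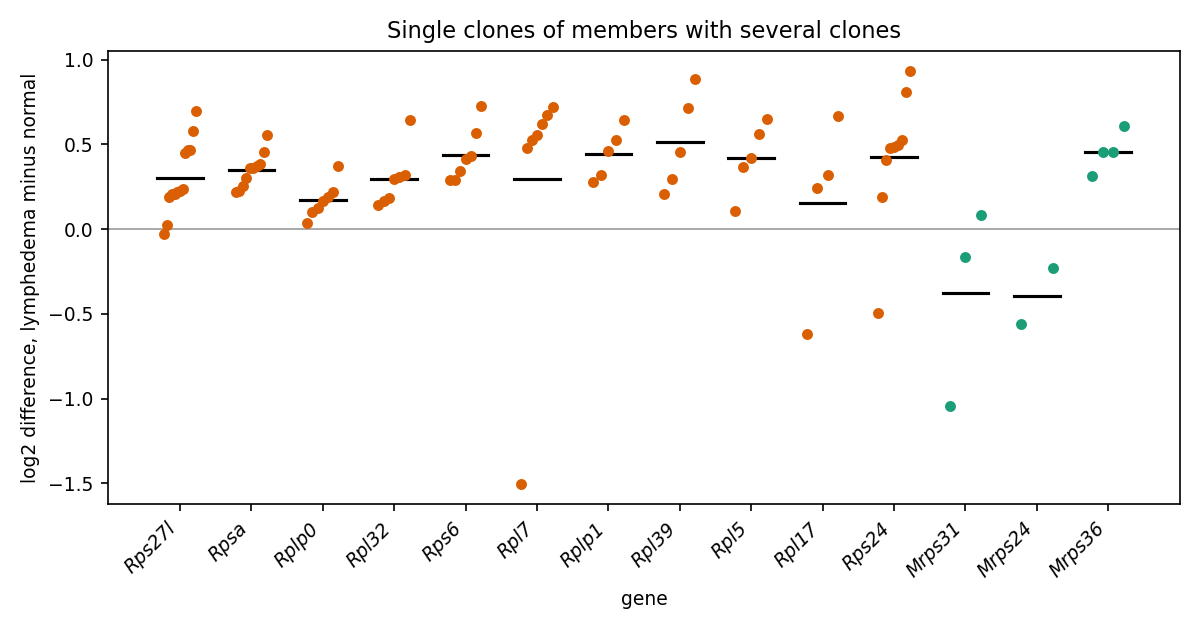
Log2 difference of lymphedema minus normal skin (y axis) of each single clone of 14 members (x axis), cytosolic in orange and mitochondrial in green, with a black bar at the mean of the clones that stands for the gene. Clones of Rps27l, Rpsa, Rplp0, Rpl32 and Rps6 lie with 1 exception above 0, whereas 1 clone of Rpl7 lies at −1.50 apart from the other 6, and 1 of Mrps31 at −1.04.

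The classes also differed in precision. The median SD within a state was 0.20 in cytosolic members, which had a median of 3.5 clones, 0.22 in mitochondrial members with a median of 2 clones, and 0.27 in all genes with a median of 1 clone. Of cytosolic members 12.1% rested on 1 clone, against 47.8% of mitochondrial members and 53.7% of all genes. The called members Rps12, Rps7 and Mrpl1 each rested on 1 clone with values on all 9 arrays. Mrpl1 had a further clone with 8 values, which was left out of the fit. With 2 of 3 values per state Mrpl1 did not pass, where 169 of 10036 genes passed as higher.

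The 3 members without a value on all arrays were not in the fit. Mrpl19 read −0.030, 0.25 and 0.83 in lymphedema, 0.14 and 0.80 on sham arrays 2 and 3, and 0.50 on normal array 3. Mrpl9 read −0.85, 0.19 and −0.82 in lymphedema, −0.75, −0.024 and 0.21 in sham, and 0.078 on normal array 3. With 1 normal array in both, no comparison with normal skin was made, and their lymphedema and sham arrays overlapped. Of 2 clones of Mrps25, 1 read −0.11 and −0.18 on lymphedema arrays 2 and 3, −0.92, −0.82 and −0.022 in sham, and −0.37, −0.82 and −0.56 in normal skin, so that both lymphedema values were above the normal arrays and overlapped sham. The other clone read −0.65 and −0.15 on lymphedema arrays 1 and 2, −0.78, −1.85 and −1.37 in sham, and −0.35 and −0.999 on normal arrays 1 and 3, with lymphedema and normal skin overlapping.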

How the data were processed

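RNA of 9 pools, each of 3 mice, was hybridized once per pool against embryo RNA on a cDNA array with 2 colors. Per the methods, the authors extracted features with GenePix, subtracted background and normalized dyes. The deposited values are log2 ratios, 1 per feature and array, with medians of −0.121 to −0.002 and 1.34% to 12.6% missing. Their log base is not stated and was taken as 2, and their centering is unknown. The sign was turned and each array was centered on its median. Features with values on all 9 arrays were kept (30702, of which 15723 named by 1 gene), clones were averaged, and limma 3.58.1 (R 4.3.3) was fitted with state as the only term. Members and lists were chosen with earlier results of these data known. Named members are those past the threshold, the 4 highest and 4 lowest differences of lymphedema from normal skin and the 2 highest and lowest levels per class, and known reference genes. Rplp1, Rpl3, Rpl5, Rpl7, Rpl39, Rpl39l, Rps21, Rps24, Hnrnpa1 and Eef1g were added after their values were seen. Each pool came from separate mice, and p-values measure the spread between pools. Promoters and biotypes came from RefSeq (GRCm38.p6), and figures from matplotlib 3.10.9 in Python 3.11.15. Steps were tested on simulated data. Alternatives were no centering, scaling, quantile normalization, 2 of 3 values per state, 1 clone or the median over clones, 2 states only, blocks for replicate number and for the set of arrays, SAM, and each array left out.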

Additional observations from a re-analysis of the deposited data

How the results depend on the processing

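Of 1044 recomputed differences of 40 named members, 1014 kept their direction, and the others belong to 15 pairs of member and comparison, 0 of which passed in the fit reported. The count of cytosolic and mitochondrial members past the threshold in lymphedema against normal skin, 3 and 1 in the fit reported, was 1 and 0 without centering, 3 and 2 with scaling, 2 and 0 after quantile normalization, 1 and 0 with 2 of 3 values per state, 5 and 4 with the arrays of 2 states only, and 31 and 14 by SAM. With 1 clone per gene it was 1 and 1, both lower (Rpl7 and Mrps31). The count over all genes moved too: against 245 higher and 52 lower in the fit reported, it was 154 and 56 without centering, 314 and 55 with scaling, 112 and 72 after quantile normalization, 169 and 48 of 10036 genes with 2 of 3 values, 140 and 49 with 1 clone, 614 and 228 with 2 states only, and 1421 and 176 by SAM. The median difference of mitochondrial members was 0.15 without centering and 0.12 after quantile normalization. In sham against normal skin it was 0.0050 after quantile normalization, 0.016 with 1 clone and −0.072 with the set of arrays as a block, and that of cytosolic members, 0.094 as reported, was 0.027, 0.045 and 0.023 in the same order. That of all genes was −0.0044, 0.018 and 0.020 in this order. Quantile normalization set the median of all genes in lymphedema against normal skin to −0.023, and over all alternatives the cytosolic median stood 0.20 to 0.37 above that of all genes and the mitochondrial 0.056 to 0.17. The median level against the embryo was −0.28 and −0.27 in the mitochondrial class without centering and after quantile normalization, and 0.12 in the cytosolic class with 1 clone. Causes were not tested.

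With the replicate number as a block 0 cytosolic and 0 mitochondrial members passed, with 116 of all genes higher and 29 lower, while the medians of the classes were as reported. Deviations of same-numbered arrays from their state means correlated at −0.24 to 0.28 across the 8644 genes, and those of other pairs at −0.34 to 0.28. These ranges give no sign of a pairing by number, and with 3 arrays per state they cannot exclude it. With the set of arrays as a block 0 of all 8644 genes passed, members included (0 and 0).

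In lymphedema against normal skin other directions were seen for Rps25 (−0.041) without centering, Mrps22 (−0.059) with scaling and Rpl36al (−0.079) with 2 of 3 values. After quantile normalization they were seen for Rps25 (−0.032), Rps19 (−0.026) and Mrps22 (−0.17), and with the median of clones for Rpl13a (−0.020). With 1 clone they were seen for Rpl17 (−0.62), Mrpl27 (−0.25), Rps27l (−0.030) and Rpl7 (−1.50). With the block for the set of arrays they were seen for Rps25 (−0.020), Rps19 (−0.012), Rps4x (−0.034) and Rpl3 (−0.022). In sham against normal skin Mrps36 turned to −0.0070 without centering, −0.055 after quantile normalization and −0.077 with 1 clone. Mrps36 was at −0.035 with the median of clones and at −0.10 with the block for the set of arrays, where Mrps30 was at −0.096. With each array left out in turn the counts ran from 0 to 5 and from 0 to 3, the mitochondrial median from 0.14 to 0.26 against normal skin and from −0.018 to 0.11 in sham, Rpl3l from −0.18 to 0.098, Rps19 from −0.039 to 0.14, Rps25 from −0.047 to 0.068, and in sham against normal skin Mrps30 from −0.084 to 0.56 and Mrps36 from −0.037 to 0.085, with Mrps24 from −0.039 to 0.35 in lymphedema against sham.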
